A study of Mus musculus with 4 samples.

Results

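The genes described here encode the heat shock proteins (HSPs) of the HSP70, HSP110, HSP90, chaperonin and small HSP families and the J proteins (DNAJ families A, B and C). They were chosen by gene name alone, from the name stems Hspa, Hspb, Hspd, Hspe, Hsph, Hsp90a, Dnaja, Dnajb and Dnajc, with a minimum of 40 counts over the 4 libraries and without the endoplasmic reticulum (ER) chaperones Hspa5, Hspa13, Dnajb9, Dnajb11 and Dnajc3 and the unrelated Hspbap1. The names matched 73 gene models, 6 were left out by name, 6 did not reach the minimum, and 61 of the 51826 gene models in the deposited table remained. All 61 passed the filter on low counts and were tested.

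RNA was measured in primary microglia, the resident macrophages of the brain, from newborn C57BL/6 mice. Brains freed of meninges were dissociated with trypsin, the cells grew as a mixed culture for 2 weeks, and microglia were shaken off. The mock group (2 libraries, untreated) and the LysoPS group (2 libraries) share this origin, and the LysoPS group was exposed for 4 h to lysophosphatidylserine, a lipid ligand of the receptor GPR34. All 4 libraries carry WT, read here as wild type, in their labels (WT1 and WT2 for mock, WTL1 and WTL2 for LysoPS). Whether replicates came from separate animals or cultures is not stated, so every p-value measures the spread between these samples, which may be technical. The libraries held 30001098 to 45193959 counts. A treatment note speaks of a lone treated replicate, whereas both LysoPS libraries carry the treatment in their own labels, which were followed.

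The libraries held markers of several brain cell types. Markers of microglia and macrophages were present (9 of 13 gene models rose, 1 fell; summed level 2688 to 2995 CPM in mock and 3989 to 4475 in LysoPS, where CPM is the count scaled to library size). Of the astrocyte markers 8 of 10 fell, and their sum was 9805 to 10918 CPM in mock and 5106 to 5832 in LysoPS, and fibroblast and mural markers summed to 14567 to 14713 and 12033 to 12393, with 3 of 8 falling. Of the oligodendrocyte markers 3 of 7 rose; none did without mock replicate 1, without mock replicate 2 or on TPM. Of the microglia markers 4 of 13 rose without mock replicate 2, and with library totals or on TPM 5 of the 8 fibroblast and mural markers fell. Of 6 neuron markers none passed by edgeR or DESeq2 on all 4 libraries, and none had an unadjusted p under 0.05 in that edgeR fit. Among endothelial markers Cldn5 was at 0 in 3 libraries. In such bulk samples, fewer cells of a type and less RNA per cell cannot be told apart. These levels moved along with the rises and falls given below, and their part in them was not tested.

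HSP70 proteins bind unfolded stretches of other proteins in cycles of ATP hydrolysis. J proteins bring them clients and trigger hydrolysis, and HSP110 proteins and other exchange factors release the nucleotide. HSP90 acts later on partly folded clients such as kinases and steroid receptors, small HSPs hold unfolded proteins without ATP, and HSP60 with HSP10 forms the folding chamber of the mitochondrion. In a heat shock response the factor HSF1 binds repeats of a short unit, the heat shock element, in the promoters of many of these genes.

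The name "cytosolic chaperones" holds for only part of the set. By textbook knowledge 9 of the 61 genes act in the mitochondrion (among them Hspa9, Hspd1 and Hspe1) and 8 in the ER or its membrane (among them Dnajb12, Dnajb14 and Dnajc10), and Hspb11 is better known as the intraflagellar transport protein IFT25 (13.4 and 12.1 CPM in mock, 12 and 10.8 in LysoPS; -0.16, adjusted p = 0.38; it passed as lower only on TPM, the deposited length-normalised scale).

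Promoter windows from RefSeq (GRCm38.p6, 250 bases before to 50 bases after each transcript start) were found for 49 of the 61 genes and searched for heat shock elements. The strict motif had 3 units, GAANNTTCNNGAA or, on the other strand, TTCNNGAANNTTC. It was present for 4 of 49 genes (8.16%), namely Dnajb6, Hspd1, Hspe1 and Hsph1, against 179 of 27025 genes (0.662%) in the whole promoter table. A motif of 2 units, GAANNTTC or TTCNNGAA, each of which is part of the longer one, was present for 14 of 49 (28.6%) against 17.0% of all genes, and for 9 of the 11 matched genes known to be induced by heat (81.8%). A match is a description of the letters and does not show binding. The strict matches are shown because they mark the genes in which a classical heat shock element could be read directly. RefSeq gives 2 starts for Dnajb6 (29735898 and 29735979) and for Hsph1 (149636336 and 149636315), and both windows of each gene hold the same match. Capitals mark the motif, all 5′ to 3′ on the gene's strand, for Hspe1 (chr1:55088053-55088082, plus strand, first match 89 bases before the start), Dnajb6 (chr5:29735843-29735872, plus strand, 46 bases before the start at 29735898) and Hsph1 (chr5:149636287-149636316, minus strand, from base 37 of the transcript that starts at 149636336).
Hspe1: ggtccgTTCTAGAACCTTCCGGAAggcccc
Dnajb6: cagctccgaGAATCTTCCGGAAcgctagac
Hsph1: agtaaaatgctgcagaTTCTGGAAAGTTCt
Hspe1 and Hspd1 lie head to head, and their 5′ ends overlap by 112 exon bases. RefSeq gives 2 transcript starts for Hspd1, on the minus strand. The window of the start at 55087932 holds the same bases as the Hspe1 match (chromosome 1, first match 55088059 to 55088071), and the window of the start at 55088243 holds no strict match.

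Across all genes, 4854 of 19057 (25.5%) passed edgeR's quasi-likelihood test of LysoPS against mock (adjusted p below 0.05). As shares of all genes tested, 12.8% were higher in LysoPS and 12.6% lower. Of the 61 chaperone genes, 18 changed, 7 higher and 11 lower, and 43 did not pass. Their median log2 fold change was -0.0025, beside -0.013 over all genes. Both LysoPS libraries lay above both mock libraries for 21 of the 61 (32.5% of all genes) and below them for 22 (34.5% of all genes). The chaperone genes as a set thus changed about as often as genes at large. By role, all 3 mitochondrial chaperones rose, both HSPA12 genes fell, and neither HSP90 gene passed. Only 3 of the 18 changed by 2-fold or more, Hspa2, Hspa12b and Dnajc5b, all lower, and of the 43 that did not pass, 32 had a fitted log2 change within 0.25 of 0.

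**Figure D1:**
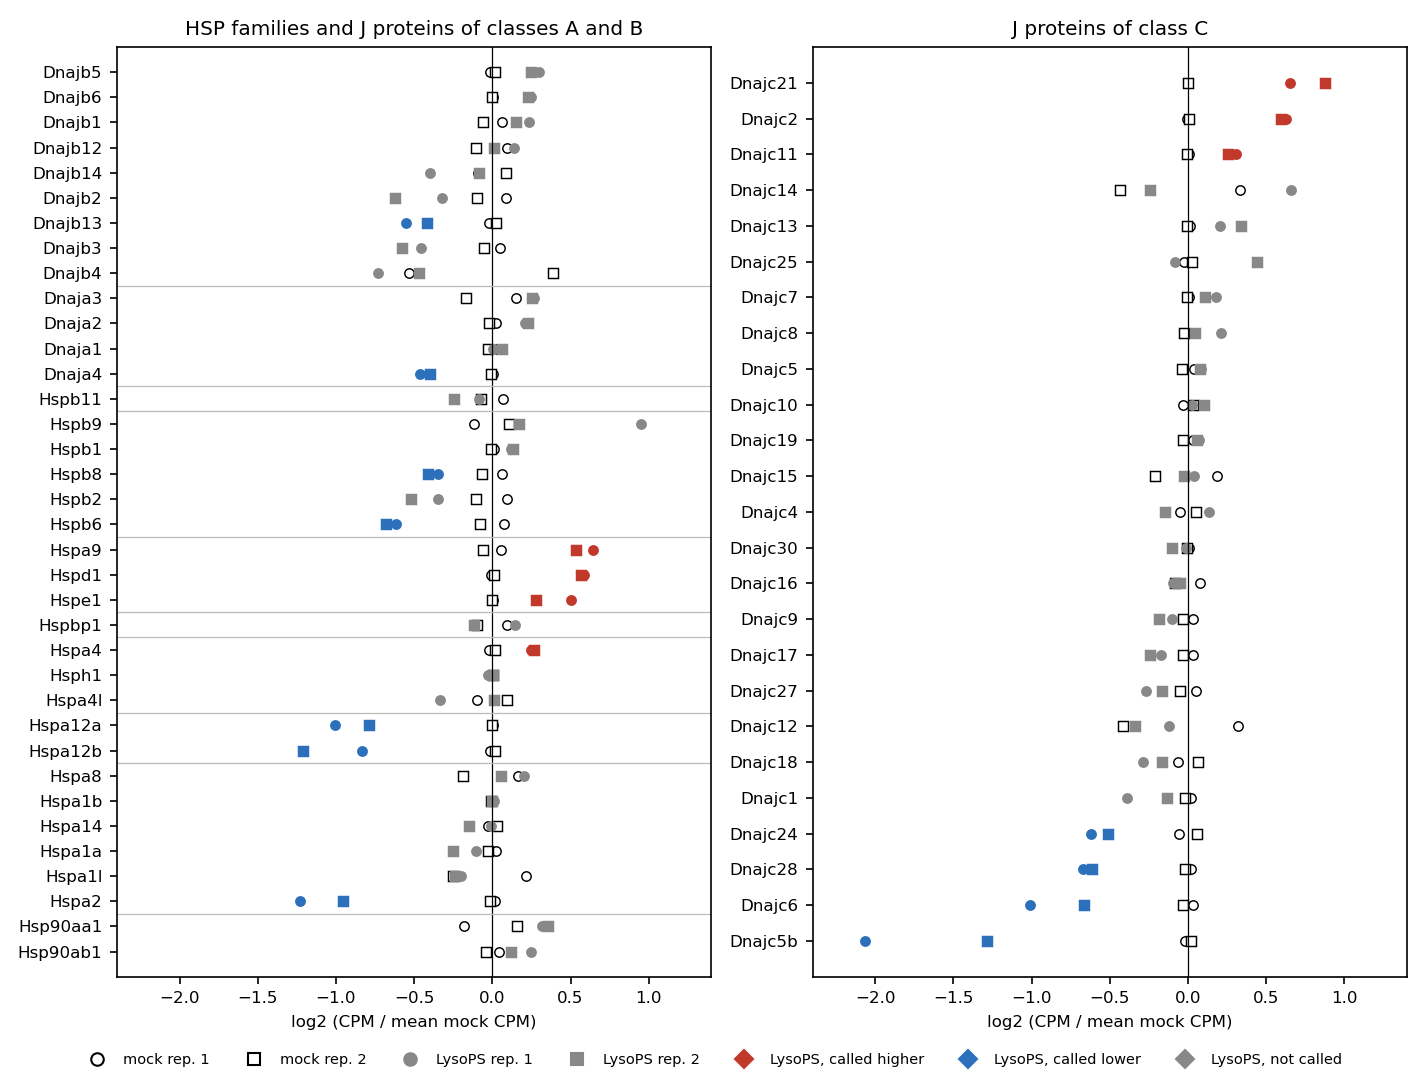
Level of each of the 61 chaperone genes in each library, as log2 of its CPM over the mock mean; open symbols are the 2 mock libraries, filled symbols the 2 LysoPS libraries (circle replicate 1, square replicate 2), coloured by the edgeR call, with grey lines between roles. The 7 genes called higher include all 3 mitochondrial chaperones, and the 11 called lower reach furthest for Dnajc5b, at -1.60 by the fit.

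Levels of the genes can be compared only per length, on the deposited TPM scale (transcripts, normalised to length and library). In mock the mean level ran from 1.14 TPM (Hspb9) to 1116 TPM (Hspa8), with a median of 37.3, and 15 genes exceeded 100 TPM while 13 were under 10 TPM. Hspa8, the constitutive HSP70, stood at 1116 ± 175 TPM (SD, n = 2) and Hsp90ab1, the constitutive HSP90, at 1008 ± 24.7 TPM, a difference smaller than the SD of Hspa8. Next came the small HSP Hspb8 at 387 ± 18.3 TPM and the inducible HSP90 gene Hsp90aa1 at 381 ± 40.4 TPM, also within their SDs of each other, then Dnaja1 (231 ± 4.32 TPM), Hspa9 (224 ± 7.98), Hspd1 (191 ± 7.71) and Hspe1 (164 ± 2.45). Hspa8, Hsp90aa1 and Hsp90ab1 together made up 39.9% to 43.5% of the summed TPM of all 61 genes in each library. That sum was 6204 and 5992 in mock and 5860 and 5837 in LysoPS. The heat-inducible HSP70 genes Hspa1a and Hspa1b were far below the constitutive gene, at 8.67 ± 0.0319 and 8.25 ± 0.12 TPM in mock.

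**Figure D2:**
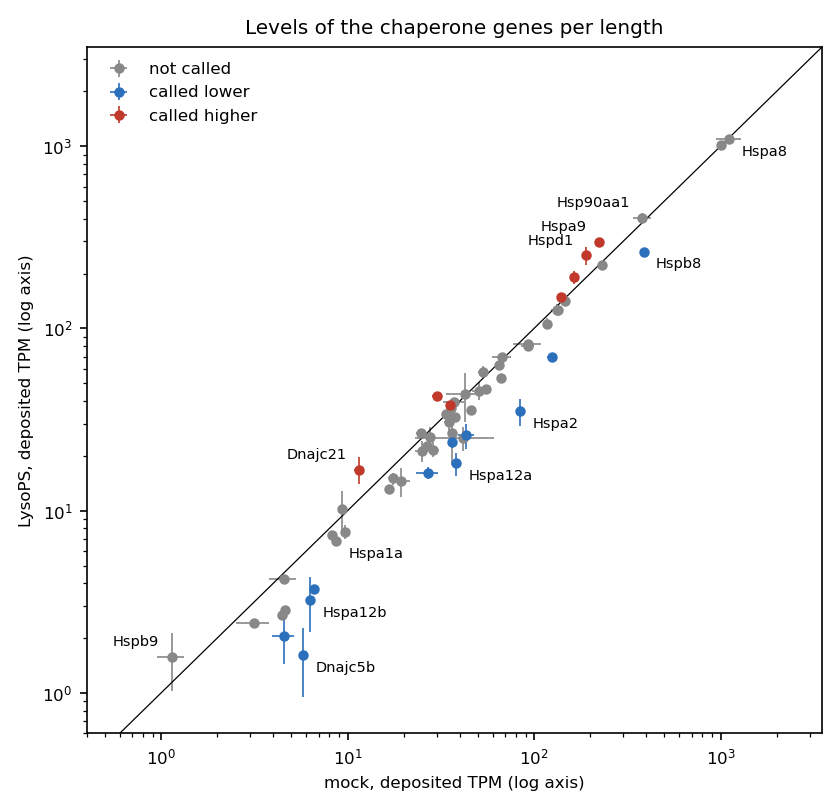
Mean deposited TPM of the 61 genes in mock (x) and LysoPS (y), both on log axes, with bars for the SD over 2 libraries and a line of equal level; colours give the edgeR call on counts. The genes span from Hspb9 (1.14 TPM in mock) to Hspa8 (1116 TPM), and most lie near or slightly below the line; the median change of all genes was -0.14 on the log2(TPM + 1) scale.

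Values below are CPM with library sizes scaled by the trimmed mean of M-values (TMM). Each is given as mock replicates 1 and 2 followed by LysoPS replicates 1 and 2. Fold changes are log2 of LysoPS over mock with the standard error (SE) and edgeR's adjusted p. Counts of rises and falls stand beside 12.8% and 12.6% of all genes. The test itself weighs the gap between groups against the spread of replicates. Close replicates or groups without overlap in a called gene are therefore not further evidence of a change.

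The mitochondrial chaperones rose together. Hspd1 (HSP60, chromosome 1, 55077835 to 55088243, GRCm38) was at 188 and 190 CPM in mock and 283 and 280 in LysoPS, a log2 fold change of 0.58 (SE 0.058, adjusted p = 0.0035). Hspa9 (mortalin, the HSP70 of the mitochondrial matrix and its protein import motor) was at 323 and 298 CPM and then 484 and 450, a log2 fold change of 0.59 (SE 0.074, adjusted p = 0.0061). In both genes the LysoPS libraries lay above both mock libraries and close to each other. Hspe1 (HSP10, the lid of the HSP60 chamber, chromosome 1, 55088132 to 55091307) was at 58.7 and 58.4 CPM and then 83 and 71, a log2 fold change of 0.40 (SE 0.098, adjusted p = 0.041). The median of the 3 was 0.58. Of 9 genes known in the mitochondrion 4 rose, 1 fell (Dnajc28) and the median was 0.26. Of the 8 known in the ER none passed by edgeR, DESeq2 or limma-voom on all 4 libraries. Among these 8, 1 had an unadjusted p under 0.05 by edgeR, and the median was -0.0039. Of the 9, only 2 rose without mock replicate 1, mock replicate 2 or LysoPS replicate 1 and by library totals or TPM; the median was 0.11 without mock replicate 2, 0.16 by library totals and 0.086 on TPM. Of the stretches of 50 bases, Hspd1 shares 39.7%, Hspe1 18.4% and Hspa9 2.81% with other genes, mostly pseudogenes, and the pseudogenes in the table held 1.25%, 0.254% and 0.0034% as many counts as these genes. Without mock replicate 1, mock replicate 2 or LysoPS replicate 1, and by library totals or TPM, Hspe1 no longer passed (adjusted p up to 0.17), while Hspd1 and Hspa9 passed in every alternative run.

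Partners of these chaperones outside the name rule were counted from a list of 10 mitochondrial proteins. Grpel2 (0.42, adjusted p = 0.018) and Grpel1 (0.38, adjusted p = 0.044), the exchange factors of Hspa9, rose and none fell. The list's median was 0.077, and neither gene passed without mock replicate 1 or without mock replicate 2. On TPM none of the list rose, 2 fell, and the median was -0.13, or 0.011 above that of all genes. The proteases Lonp1 (0.26, adjusted p = 0.11) and Clpp (0.01, adjusted p = 0.97) and the mitochondrial HSP90 Trap1 (0.02, adjusted p = 0.87) did not pass.

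Among the 6 cytosolic HSP70 genes 1 fell, none rose and none was higher at an unadjusted p under 0.05. Hspa2 (chromosome 12, 76404176 to 76406938), an HSP70 best known from male germ cells, was at 99 and 96.7 CPM in mock and 41.8 and 50.5 in LysoPS, a log2 fold change of -1.08 (SE 0.11, adjusted p = 0.0035). The groups were far apart compared with the gap between replicates. Hspa8 was at 1296 and 1016 CPM and then 1329 and 1201, a log2 fold change of 0.13 (SE 0.13, adjusted p = 0.50); the groups overlapped, and the mock libraries differed more from each other than the group means did. Hspa14, the HSP70-like partner of Dnajc2 at the ribosome, was at 41.4 and 43 CPM and then 42 and 38.1 (-0.08, adjusted p = 0.56), again with overlap. The testis gene Hspa1l was at 4.22 and 3.05 CPM and then 3.17 and 3.09 (-0.21, adjusted p = 0.51), and 71.9% of its exon bases overlap Gm10501 on the opposite strand. Hspa8 shares 38.6% of its 50-base stretches with other genes, and its pseudogenes in the table held 18.4% as many counts as the gene.

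The inducible pair Hspa1a (chromosome 17, 34969190 to 34972156) and Hspa1b (chromosome 17, 34956436 to 34959238) are the classical reporters of a heat shock response. Hspa1a was at 12.1 and 11.7 CPM in mock and 11.1 and 10 in LysoPS, a log2 fold change of -0.17 (SE 0.12, adjusted p = 0.32). Hspa1b was at 10.7 and 10.7 CPM and then 10.8 and 10.7, a log2 fold change of 0.01 (SE 0.11, adjusted p = 0.97). Neither passed. For Hspa1a both LysoPS libraries lay below both mock libraries, as they did for 34.5% of all genes. The Hspa1b libraries were nearly level. Because the transcripts share most of their sequence (62.3% of the 50-base stretches of Hspa1b recur in Hspa1a), the split of reads between them is uncertain. Their sum, which does not depend on that split, was 22.9 and 22.4 CPM in mock and 21.9 and 20.7 in LysoPS. The pair is also shown by sequence, since the promoters are nearly the same: 296 of 300 bases of the RefSeq windows were identical. The stretches below (Hspa1a chr17:34972207-34972286, Hspa1b chr17:34959289-34959368, both minus strand) run from upstream towards the start, and the 2-unit heat shock motif, which begins 104 bases before the start in both genes, is in capitals.
Hspa1a: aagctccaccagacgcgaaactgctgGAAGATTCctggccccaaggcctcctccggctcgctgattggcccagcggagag
Hspa1b: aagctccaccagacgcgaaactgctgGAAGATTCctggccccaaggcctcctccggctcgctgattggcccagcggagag

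Both genes of the divergent HSPA12 branch, which have an HSP70-like ATPase part, fell. Hspa12a (chromosome 19, 58795751 to 58860984) was at 101 and 100 CPM in mock and 50 and 58.2 in LysoPS, a log2 fold change of -0.89 (SE 0.097, adjusted p = 0.0042). Hspa12b (chromosome 2, 131127280 to 131146321), known from endothelial cells, was at 9.38 and 9.57 CPM and then 5.32 and 4.09, a log2 fold change of -1.01 (SE 0.17, adjusted p = 0.013). In both, all LysoPS values lay below the mock values. Among the endothelial markers Kdr (-1.45, adjusted p = 0.0024) and Cdh5 (-0.92, adjusted p = 0.0031) fell as well, 2 of the 4 tested. Tek was low, at 1.1 and 1.55 CPM and then 0.777 and 0.549, and did not pass (-1.02, adjusted p = 0.086). Pecam1, another of the 4, was at 0.0974 and 0.74 CPM and then 1.7 and 2.1 (2.09, adjusted p = 0.088) and did not pass; it passed as higher with no filter, with DESeq2, without mock replicate 2 and on TPM. The markers' summed level was 328 to 336 CPM in mock and 159 to 184 in LysoPS. Most of this sum was Cdh5 alone, at 306 and 296 CPM in mock and 147 and 170 in LysoPS. The part of the endothelial markers in the result was not tested. The Hspa12b call was lost without mock replicate 2 and on TPM (adjusted p up to 0.057), and the transcript length implied by its count over FPKM varied by 1.33 times between libraries.

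Of the HSP110 exchange factors, Hspa4 rose by a small amount. It was at 287 and 295 CPM in mock and 345 and 350 in LysoPS, a log2 fold change of 0.26 (SE 0.057, adjusted p = 0.031). Hsph1 (HSP105), which carries a strict heat shock element in its promoter window, was at 126 and 126 CPM and then 124 and 126 (-0.01, SE 0.063, adjusted p = 0.93), and its groups overlapped. Hspa4l was at 127 and 145 CPM and then 108 and 137 (-0.15, adjusted p = 0.47), and the exchange factor Hspbp1 at 34 and 29.8 and then 35.3 and 29.4 (0.02, adjusted p = 0.93). The Hspa4 call was lost without mock replicate 1, mock replicate 2 or LysoPS replicate 1, and by library totals and TPM (adjusted p up to 0.40).

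Neither cytosolic HSP90 gene passed, and both had an unadjusted p under 0.05 by edgeR. The share of all genes with such a p was not counted. Both LysoPS libraries lay above both mock libraries in each gene, as they did for 32.5% of all genes. Hsp90aa1 was at 418 and 528 CPM in mock and 589 and 607 in LysoPS, a log2 fold change of 0.34 (SE 0.12, adjusted p = 0.099), and the mock libraries were further apart than the LysoPS libraries. Hsp90ab1 was at 1164 and 1097 CPM and then 1340 and 1228 (0.18, SE 0.069, adjusted p = 0.12). On TPM the fitted changes were 0.093 for Hsp90aa1 and 0.014 for Hsp90ab1, or 0.23 and 0.15 above the median of all genes. By library totals they were 0.24 and 0.086, or 0.35 and 0.20 above that median. Neither gene passed by TPM or library totals. Hsp90aa1 shares 47.5% of its 50-base stretches with pseudogenes, whose counts came to 7.52% of its own. It passed without mock replicate 2 and with DESeq2, and Hsp90ab1 passed without LysoPS replicate 2.

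HSP90 co-chaperones, proteins that deliver clients to HSP90 or regulate its ATPase, rose in 4 of 13 cases and fell in none, with a median of 0.25. Ptges3 (p23) was at 157 and 158 CPM and then 206 and 198 (0.36, adjusted p = 0.015). Stip1 (HOP, the bridge between HSP70 and HSP90) was at 189 and 193 and then 268 and 240 (0.41, adjusted p = 0.019). Cdc37, the kinase adaptor, rose by 0.35 (adjusted p = 0.024) and Ahsa1, the ATPase activator, by 0.37 (adjusted p = 0.027). Without mock replicate 1 and without mock replicate 2 none of the 13 passed, and on TPM none rose, 1 fell and the median was 0.054, or 0.19 above that of all genes. Among 10 HSP70 co-chaperones Bag1 rose (0.45, adjusted p = 0.016) and Bag2 fell (-0.35, adjusted p = 0.046). Neither passed without mock replicate 1 or without mock replicate 2, and Bag2 did not in 7 of 13 alternatives, among them DESeq2 and each single-library omission. The list's median was 0.054, St13 did not pass (0.16, adjusted p = 0.15), and Bag3, the heat-inducible exchange factor that works with Hspb8, was at 89.4 and 82.7 CPM and then 86.4 and 86.4 (0.01, adjusted p = 0.97).

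Of the 5 small HSPs that the name rule took in, 2 fell and none rose, and none was higher at an unadjusted p under 0.05. Hspb6 (HSP20, chromosome 7, 30552178 to 30555443) was at 82.5 and 73.9 CPM in mock and 51 and 48.9 in LysoPS, a log2 fold change of -0.65 (SE 0.088, adjusted p = 0.0076). Hspb8 (chromosome 5, 116408491 to 116422864) was the most abundant of these 5. It was at 336 and 307 CPM and then 253 and 241, a log2 fold change of -0.38 (SE 0.073, adjusted p = 0.020). Both fell with no overlap. Hspb1 (HSP25), a classical heat-inducible gene, was at 27.2 and 26.9 CPM and then 29.3 and 29.6 (0.12, SE 0.080, adjusted p = 0.31), and 48.8% of its 50-base stretches recur in the pseudogene Hsp25-ps1. Hspb2 was at 1.3 and 1.13 CPM and then 0.956 and 0.846 (-0.43, adjusted p = 0.29). The testis gene Hspb9 was at 0.357 and 0.416 CPM and then 0.747 and 0.435 (0.58, adjusted p = 0.38). They rested on 158 and 73 counts over the 4 libraries. Hspb2 passed as lower on TPM. Of its exon bases 30.2% overlap Cryab on the opposite strand, and whether counting used strand was not given. The astrocyte markers Gfap (-1.06, adjusted p = 0.00091) and Aldoc (-1.55, adjusted p = 0.0012) fell beside Hspb6 and Hspb8; their part in these falls was not tested. The Hspb8 call was lost without mock replicate 1 and without mock replicate 2 (adjusted p up to 0.13), whereas Hspb6 passed in every alternative run.

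The Hspb1 window is shown because it holds the 2-unit motif at 2 positions, in capitals, in a classical heat-inducible gene (chr5:135887794-135887838, plus strand, the first match 117 bases before the start).
Hspb1: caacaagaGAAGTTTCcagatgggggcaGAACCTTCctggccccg

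The 14 genes known to be induced by heat were Hspa1a, Hspa1b, Hspa8, Hspa4l, Hsph1, Hsp90aa1, Hsp90ab1, Hspd1, Hspe1, Hspb1, Hspb8, Dnaja1, Dnajb1 and Dnajb4. Hspd1 and Hspe1 rose, Hspb8 fell, and 11 did not pass, with a median of 0.08. Over all genes 25.5% passed, 12.8% higher and 12.6% lower. Only 1 of the 14 rose without mock replicate 1, without LysoPS replicate 1, by library totals or on TPM. The median was 0.0032 without mock replicate 2, where Hspb8 no longer passed, -0.018 by library totals and -0.048 on TPM, the latter 2 being 0.093 and 0.092 above that of all genes. Of the other 47 genes 5 rose and 10 fell, with a median of -0.071. Among the factors that govern the response, Hsf1 was at 24.6 and 25.1 CPM and then 34.1 and 29.9 (0.36, adjusted p = 0.054) and did not pass, but passed as higher with DESeq2, without LysoPS replicate 2 and in the fit limited to genes of stable read assignment (implied transcript length nearly constant between libraries). Hsf2 was at 57.4 and 60.6 CPM and then 44 and 46.6 and fell (-0.38, adjusted p = 0.025), a call lost as each mock library or LysoPS replicate 1 was left out. Hsf4 was at 1.27 and 1.55 CPM and then 0.687 and 0.869 (-0.85, adjusted p = 0.088). The list of 4 also held Hsbp1, an HSF-binding protein rather than an HSF (-0.01, adjusted p = 0.93), and the list's median was -0.20. Of 16 further genes known to respond to heat, 5 rose (Tcp1, Cacybp, Stip1, Ahsa1 and P4ha1) and none fell, with a median of 0.19; 3 of the 5 also stand in the co-chaperone or TRiC lists. Cacybp was at 82.5 and 87.4 CPM and then 115 and 115 (0.44, adjusted p = 0.012). Without mock replicate 1 only 1 of the 16 passed, without mock replicate 2 none did, and on TPM 1 rose, 1 fell and the median was 0.0035.

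J proteins of class A, the general HSP70 partners with a zinc-binding part, numbered 4. Dnaja4 was at 50.3 and 49.9 CPM in mock and 36.3 and 37.9 in LysoPS and fell by 0.43 on the log2 scale (SE 0.074, adjusted p = 0.015). Dnaja1, the most abundant J protein, was at 252 and 242 CPM and then 249 and 258 (0.04, adjusted p = 0.71), with overlap, and Dnaja2 at 193 and 187 and then 219 and 223 (0.22, adjusted p = 0.053). Dnaja2 passed as higher with DESeq2, with its size factors in edgeR, with a stricter filter and without the genes of unstable read assignment. It did not pass on TPM, where its fitted change was 0.041, or 0.18 above the median of all genes. By library totals it did not pass either (0.12, or 0.23 above that median). Dnaja3, the mitochondrial member, was at 48.3 and 38.8 CPM and then 52.3 and 51.9 (0.26, adjusted p = 0.18). Of the exon bases of Dnaja4, 44.1% overlap Wdr61 on the opposite strand, and whether counting used strand was not given, so reads of the pair may not have been told apart. Wdr61 itself had a log2 fold change of 0.18 (adjusted p = 0.35). The Dnaja4 call was lost without mock replicate 1 or mock replicate 2 (adjusted p up to 0.10).

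Among 9 J proteins of class B, 1 fell and none rose, while 2 were higher at an unadjusted p under 0.05. Dnajb13, a radial spoke protein of motile cilia, was at 29.5 and 30.5 CPM in mock and 20.5 and 22.5 in LysoPS, a log2 fold change of -0.48 (SE 0.093, adjusted p = 0.021). Of the 8 ependymal and cilium markers 5 fell and none rose, with a median of -0.62 and a summed level of 428 to 429.9 CPM in mock and 274 to 279.6 in LysoPS; their part in the fall was not tested. Without mock replicate 2, 3 of the 8 fell. Dnajb1, the main stress-inducible partner of HSP70, was at 51.7 and 47.6 CPM and then 58.5 and 55.1 (0.19, SE 0.084, adjusted p = 0.16). Dnajb6, a suppressor of protein aggregation whose promoter holds the strict element, was at 92.2 and 92 CPM and then 109 and 108 (0.24, SE 0.065, adjusted p = 0.052). Dnajb5 (27.6 and 28.3, then 34.3 and 33.1 CPM; 0.27, adjusted p = 0.065) and Dnajb2 (35.3 and 31.1, then 26.5 and 21.6 CPM; -0.46, adjusted p = 0.062) had groups that did not overlap and did not pass. The implied transcript length varied between libraries by 1.39 times for Dnajb2 and by 1.23 times for Dnajb6. Dnajb6 passed as higher with DESeq2, with its size factors in edgeR and with limma-voom, while on TPM its fitted change was -0.071, or 0.070 above the median of all genes. Dnajb2 passed as lower with DESeq2, with no filter, without LysoPS replicate 1 and with library totals. The Dnajb13 call was lost without mock replicate 1 or mock replicate 2 (adjusted p up to 0.11), and 11.2% of its exon bases overlap Ucp2 on the opposite strand, which had a log2 fold change of 0.04 (adjusted p = 0.69).

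Class C J proteins, a mixed family that shares only the J domain, held 25 genes. Of these 3 rose and 4 fell, with a median of -0.0025, where 12.8% of all genes rose and 12.6% fell. Dnajc2 (chromosome 5, 21757267 to 21785251), the J protein of the ribosome-associated complex, was at 32.1 and 32.4 CPM in mock and 49.9 and 48.7 in LysoPS, a log2 fold change of 0.61 (SE 0.073, adjusted p = 0.0055). Dnajc21 (chromosome 15, 10446756 to 10470516), which takes part in the maturation of the large ribosomal subunit, was at 10.1 and 10.1 CPM and then 15.9 and 18.6, a log2 fold change of 0.77 (SE 0.12, adjusted p = 0.012). For both, the replicates of a group were close to each other compared with the gap between groups. Dnajc11, of the mitochondrial membranes and named here after its values were seen, was at 50.5 and 49.9 CPM and then 61.9 and 59.8 (0.28, SE 0.072, adjusted p = 0.045). Dnajc2 passed in every alternative run; Dnajc21 did not without mock replicate 1, without mock replicate 2 or on TPM (adjusted p up to 0.077), and Dnajc11 did not in 7 of 13 alternatives, among them each single-library omission.

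Of the 4 class C genes that fell, Dnajc5b, Dnajc6 and Dnajc28 were under 10 TPM in mock. Dnajc5b (chromosome 3, 19508595 to 19610862), a relative of the synaptic cysteine-string protein, was at 2.47 and 2.54 CPM in mock and 0.597 and 1.03 in LysoPS, the largest fitted change of the 61 genes at -1.60 (SE 0.31, adjusted p = 0.021). Dnajc6 (auxilin, which strips clathrin from vesicles) was at 9.45 and 9.06 CPM and then 4.6 and 5.83 (-0.82, SE 0.16, adjusted p = 0.021), with an implied transcript length that varied by 1.32 times. Dnajc28 was at 8.76 and 8.55 CPM and then 5.44 and 5.65 (-0.64, SE 0.12, adjusted p = 0.020). Dnajc24, an enzyme cofactor of diphthamide synthesis, was at 11.4 and 12.3 CPM and then 7.71 and 8.33 (-0.56, SE 0.12, adjusted p = 0.026). In all 4 the groups did not overlap. None of the 4 calls held without mock replicate 1 or without mock replicate 2 (adjusted p up to 0.16), nor that of Dnajc24 without LysoPS replicate 1. The other 18 class C genes did not pass; the closest was Dnajc13 of the endosome, at 160 and 158 CPM and then 183 and 202 (0.27, adjusted p = 0.0504).

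The cytosolic chaperonin TRiC, which folds actin and tubulin, and its delivery complex prefoldin rose in 9 of 14 genes and fell in none, with a median of 0.38. All 8 TRiC genes rose (0.32 to 0.50). Of the 6 prefoldin genes 1 rose, Pfdn4 (0.60, adjusted p = 0.0499), which did not pass in 7 of 13 alternatives, and the other 5 did not pass (adjusted p 0.10 to 0.48). Tcp1 was at 193 and 189 CPM in mock and 281 and 260 in LysoPS (0.50, adjusted p = 0.0078), and Cct7 at 146 and 142 and then 194 and 189 (0.41, adjusted p = 0.010). Cct6a had the smallest p of the list (0.49, adjusted p = 0.0067), but its implied transcript length varied by 1.91 times between libraries. Without mock replicate 1, 3 of the 14 passed, without mock replicate 2 none did, and on TPM 3 did with a median of 0.17, or 0.31 above that of all genes. The ER chaperones left out by the rule or by name rose in 7 of 14 cases and fell in none, with a median of 0.33, and in 4 and 3 cases without mock replicate 1 and without mock replicate 2. On TPM 4 rose and 1 fell. Sdf2l1, a partner of ER J proteins, was at 21.3 and 19.6 CPM and then 48 and 41.2 (1.13, adjusted p = 0.0033), and Hyou1, the ER member of the HSP110 branch, at 87.5 and 87.3 and then 145 and 135 (0.68, adjusted p = 0.0040). Hsp90b1, the ER HSP90, rose by 0.46 (adjusted p = 0.0045), while Hspa5, the ER HSP70, was at 412 and 702 CPM and then 618 and 1026 and did not pass (0.56, adjusted p = 0.27).

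**Figure D3:**
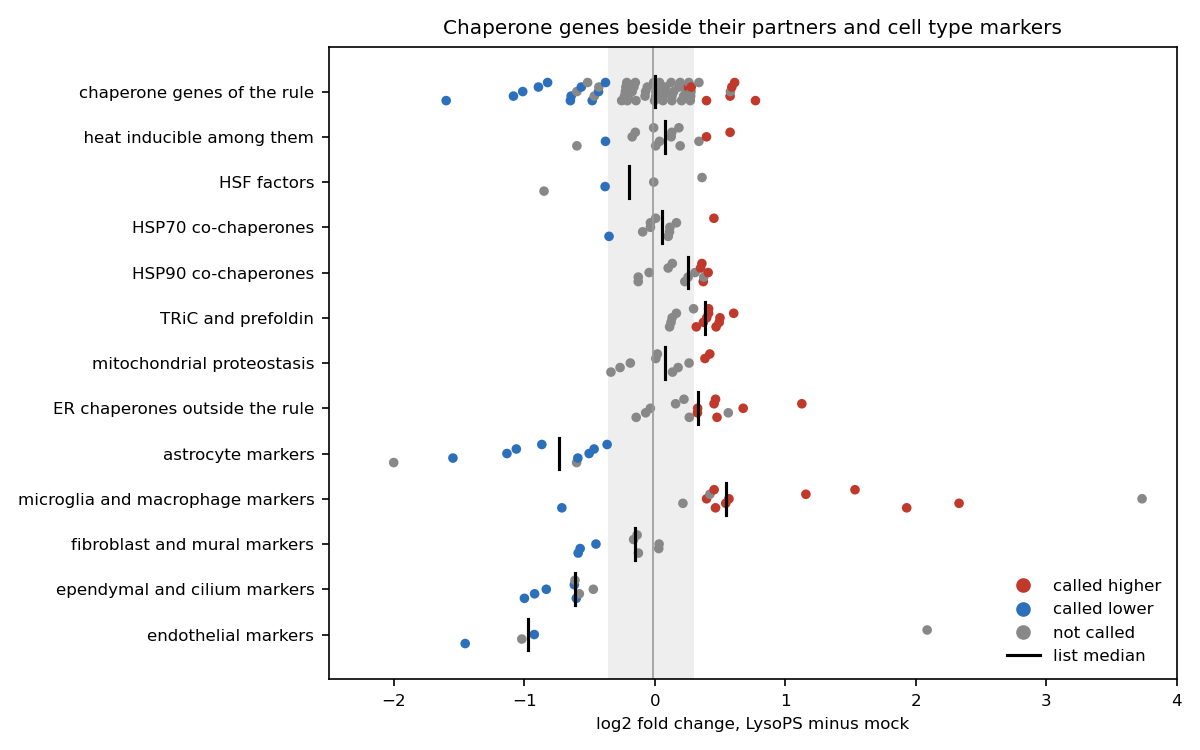
Fitted log2 fold change of each tested gene (points, coloured by the edgeR call) for the 61 chaperone genes, their heat-inducible members, partner lists and cell type markers, with each list's median as a black bar; the grey line is the median and the band the interquartile range of all tested genes. The 61 genes centre near 0, TRiC and prefoldin at 0.38, and astrocyte markers at -0.73; the microglia list holds 2 models named Itgam.

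Leaving out a mock library removed most calls. Without mock replicate 1, 8 of the 61 genes passed and 7 of the 18 calls were kept; without mock replicate 2, 7 passed and 6 were kept; over all genes the counts fell to 2223 and 2165. Hspa2, Hspa12a, Hspb6, Hspa9, Hspd1 and Dnajc2 passed in every alternative run, and all 18 kept their direction. The scaling moved the balance of calls: of the genes' calls 38.9% were higher with TMM, 25% with library totals and 17.6% on TPM, and over all genes the shares were 50.4%, 36.1% and 30.5%. With library totals the median of all genes shifted to -0.11 and on TPM to -0.14, and relative to that median Hspd1 was higher by 0.59 and 0.54 and Hspa9 by 0.60 and 0.55.

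**Figure D4:**
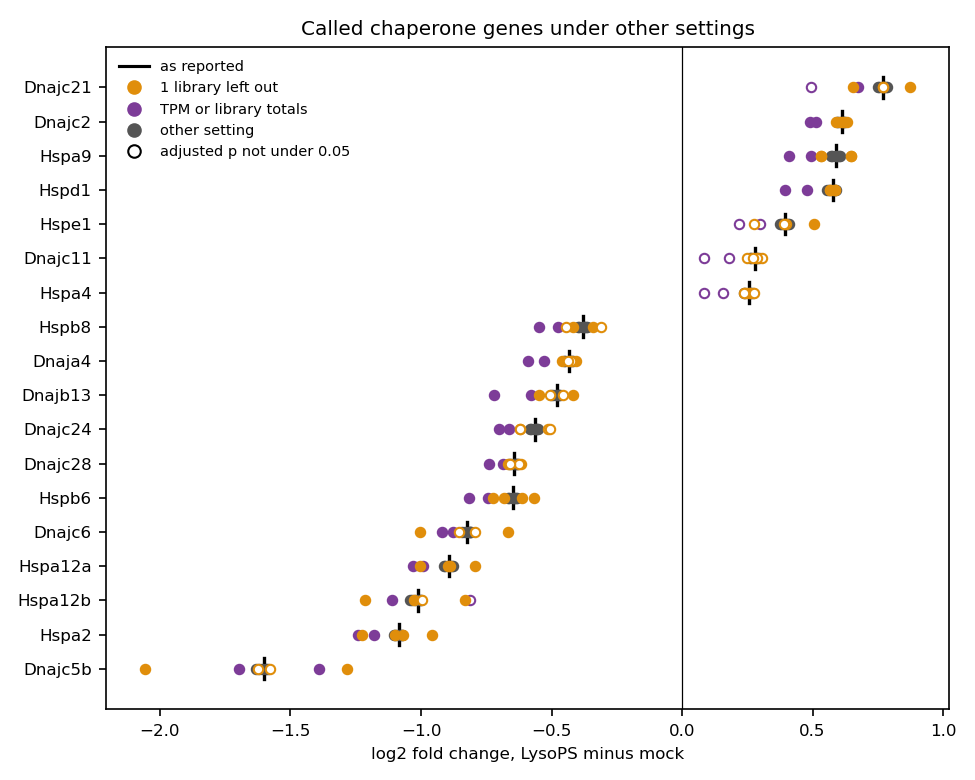
Fitted log2 fold change of the 18 chaperone genes called in LysoPS against mock: black bar as reported, orange with 1 library left out, purple with library totals or TPM, grey with any other setting; open symbols had an adjusted p of 0.05 or more. No symbol crosses 0, and open symbols are absent for Hspa2, Hspa12a, Hspb6, Hspa9, Hspd1 and Dnajc2.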

How the data were processed

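The deposited table holds counts, TPM and FPKM by gene model and library, per the file headers. Reads were handled with HISAT2, StringTie, FastQC 0.11.2 and Trimmomatic 0.36 on the build GRCm38, per the submitters' processing notes; tool settings, the annotation release and strand use are not given in the sources used here. The deposited counts are whole numbers without normalization, in which 4 occurred 3582 times and 3 occurred 2547 times. The deposited TPM served only for levels per length and an added alternative, and the deposited FPKM only for the transcript length that count over FPKM implies.

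The test was that of edgeR 4.0.16, run in R 4.3.3 beside limma 3.58.1: filterByExpr (minimum count 10), TMM (factors 0.966 to 1.04), quasi-likelihood F test of LysoPS against mock with 2 residual degrees of freedom and a biological coefficient of variation of 0.150, with two-sided p-values and Benjamini-Hochberg adjustment across the 19057 genes. SEs were derived from the F statistic. The code was tested on simulated data. Library totals ran from 30001098 to 45193959, which leaves genes under 1 CPM with few counts. Sequence sharing and exon overlap come from GENCODE M21, in which 56 of the 61 genes have the same coordinates, promoters from RefSeq.

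The genes and lists were chosen with earlier results of these data known. Given in full were 14 set names, genes past the threshold with a log2 change of at least 0.5, and up to 4 genes with the smallest p in each role; outside the rule, Hsf1, Hsf2, Bag3, Stip1, Ahsa1 and up to 3 with the smallest p in each list. Any other gene was named with its values known. Alternatives were DESeq2 size factors, no filter, limma-voom, the Wald test of DESeq2 1.42.0, a filter of 5 CPM in 2 libraries, a replicate block, each library left out, stable read assignment (20 counts or more per library, implied length varying by at most 1.2 times), Hspa1a and Hspa1b summed, and, added after the data were seen, library totals without TMM and limma on log2(TPM + 1).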

Additional observations from a re-analysis of the deposited data

How the results depend on the processing

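With 2 libraries a group, the calls rest on few samples. As each library was left out, the chaperone genes called ran from 7 to 19 (higher 3 to 7, lower 3 to 12) and all genes called from 2165 to 5356 (higher 1161 to 2768, lower 986 to 2588); a lone library was assumed to vary like the other group. The chaperone genes called higher numbered 11 with DESeq2, 12 with the replicate block, 4 with library totals and 3 on TPM, against 7 as reported, and on TPM 1353 of all genes were higher; the cause was not tested. The replicate block called 24 chaperone genes, Hsp90aa1, Hsp90ab1, Dnaja2, Dnajb2 and Dnajb6 among them, as well as Hsf1, and 5433 of all genes. The numbers share no stated origin, and same-numbered libraries deviated together only weakly (correlation 0.078 over 2 pairs). The other counts of chaperone genes called, in either direction together, were 16 to 23. No call reversed.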

Other observations

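Replicates of 1 condition differed widely for a few of these genes, which are named after their values were seen. Dnajb4, a heat-inducible J protein, was at 32.8 and 62 CPM in mock and 28.5 and 34.2 in LysoPS (-0.60, edgeR adjusted p = 0.21). Dnajc14, of the ER membrane, was at 68.8 and 40.3 CPM and then 86.2 and 46.1 (0.28, adjusted p = 0.63), so that replicate 1 was the higher library in each group; 19.9% of its exon bases overlap Ormdl2, Sarnp or Tmem198b. The pseudogene of Hspb11 in the table held 140 and 195 counts in mock and 7 and 232 in LysoPS.

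Of the 6 matched genes under the minimum, Dnajb8 and Dnajc5g had no count in any library. Dnajb7 and Dnajc22 had 30 counts each over the 4 libraries, Hspb3, the partner of Hspb2, had 13, and Hspb7 had 31. The genes just above the minimum were Hspb9, with 73 counts, and Hspb2, with 158.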
